A study of Bos taurus with 16 samples.

Results

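The genes RUNX1, RUNX2 and RUNX3 and their shared partner CBFB were followed in newborn calf muscle as 4 of the 34109 genes in the deposited tables, each matched by its NCBI gene ID (RUNX1 529631, RUNX2 536911, RUNX3 617389, CBFB 614678). All 4 were present in the tables of both muscles and all 4 passed the filter of at least 1 count in any library. RNA came from the round (hind leg) and sirloin (loin) muscles of 8 calves of Hanwoo, a Korean beef breed, taken right after birth. The 4 control calves were born to cows fed 100% of their nutritional requirement, and the 4 treated calves to cows fed 150% of it in mid to late pregnancy. The groups therefore differed in what the dam ate and not in what the calf ate, and the paper's methods describe the calves as male and taken before they drank colostrum. The set was chosen by the RUNX1 counts in round muscle, whose difference between the diets was already known, so the values of that contrast are given for these genes as a description without a test.

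RUNX proteins bind DNA through the Runt domain, and CBFB, which does not bind DNA by itself, joins them to form core-binding factor and stabilises them on their sites. RUNX1 is best known from the formation of blood cells, RUNX2 from bone and growth cartilage, and RUNX3 from T cells and sensory neurons. In skeletal muscle RUNX1 is known as a gene that is low in innervated adult fibres and rises after denervation and in regenerating myoblasts.

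Sequencing depth was similar in the muscles, with 44473011 to 72446933 counts in a round library and 44863173 to 72165291 in a sirloin library. Levels between libraries are given as CPM, the count over the library total scaled by TMM factors, and levels between genes as the deposited TPM, which is per length. The defining markers of skeletal muscle were present in every group, where 15 muscle fibre genes summed to between 67065 and 114476 TPM and none of them was at 0. Round and sirloin libraries with the same library number in the labels were taken as the muscles of 1 calf, which is an inference. After the group means were removed, the muscles of 1 calf correlated at 0.351 to 0.771 over 12315 genes. The muscles of different calves correlated at -0.548 to 0.489, a range that overlaps the first. In whole muscle, fewer cells of a type and less RNA per cell cannot be told apart.

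RUNX1 differed between libraries over a wide range. In round muscle of the control calves it stood at 26.7, 11.4, 14.2 and 10.2 CPM in replicates 1 to 4, from 1108, 879, 585 and 468 counts. In round muscle of the treated calves it stood at 4.06, 0.926, 0.636 and 0.815 CPM, from 255, 45, 44 and 39 counts. The groups did not overlap, and the lowest control library lay above the highest treated library. Among all 21677 genes tested in round muscle 1.76% had groups that did not overlap, and 1.07% did so with the treated group lower. The means were 15.6 ± 7.55 CPM (SD, n = 4) for control and 1.61 ± 1.64 CPM (SD, n = 4) for treated calves, and the fitted log2 difference was -3.23 (standard error 0.617), a 9.41-fold lower level.

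Replicate 1 was the highest library in each of these groups. It held 63.1% of the summed CPM of the treated group and 42.7% of that of the control group. Without it the means were 0.792 ± 0.146 CPM for treated and 11.9 ± 2.05 CPM for control calves (SD over the other 3). The log2 difference ran from -4.29, when treated replicate 1 was left out, to -2.85, when control replicate 1 was left out.

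**Figure D1:**
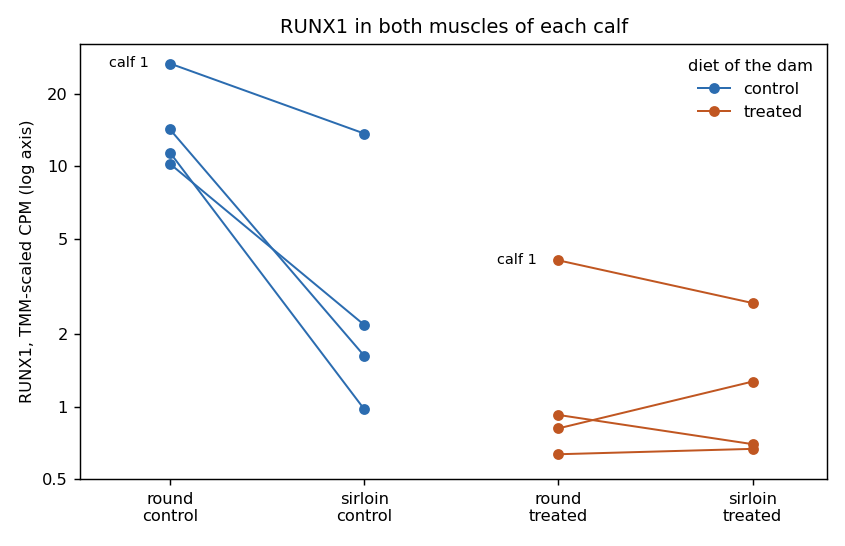
RUNX1 in TMM-scaled CPM on a log axis, with 1 point per library and a line joining the round and sirloin muscle of the same calf, for control calves in blue and treated calves in orange. The 4 control round libraries lie between 10.2 and 26.7 CPM, above every other library except sirloin control replicate 1 at 13.7 CPM, and calf 1 is the highest of its diet in both muscles.

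In sirloin muscle RUNX1 followed a different layout. The control libraries held 13.7, 0.979, 1.63 and 2.19 CPM, from 612, 73, 98 and 96 counts. The treated libraries held 2.70, 0.700, 0.670 and 1.27 CPM, from 137, 35, 45 and 87 counts. The groups overlapped, and the control mean of 4.61 ± 6.05 CPM (SD, n = 4) rested on replicate 1, which held 74.0% of the group's sum. Without that library the control mean was 1.60 ± 0.607 CPM, beside 1.34 ± 0.951 CPM (SD, n = 4) in the treated group.

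The fitted log2 difference between the diets in sirloin muscle was -1.78 (standard error 0.817, adjusted p = 0.876 by edgeR), and it was -0.26 when control replicate 1 was left out. An exact permutation test over the 70 splits of the calves gave a two-sided p of 0.257 on log2 CPM, where the smallest possible p was 0.0286. A lower RUNX1 level in sirloin muscle of treated calves was thus not shown beyond the spread between calves. By edgeR 0.00918% of the 21776 genes tested in sirloin muscle had an adjusted p below 0.05.

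Each calf gave both muscles, so RUNX1 could be compared within calves. In the 4 control calves the round level was 1.95, 11.6, 8.71 and 4.67 times the sirloin level. In the 4 treated calves it was 1.50, 1.32, 0.950 and 0.639 times the sirloin level. Round muscle was thus higher in all 4 control calves, as in 9.11% of all 22877 genes tested, and in 2 of the 4 treated calves. The control ratios share their round libraries with the diet contrast by which RUNX1 was chosen, so they are given as a description.

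Over all 8 calves the mean difference, round minus sirloin, was 1.13 ± 1.31 on the log2 scale (SD, n = 8), with 6 of 8 calves higher in round muscle. The edgeR fit across all genes gave 1.02 (standard error 0.539), and 1.27 with the calf as a block. These values hold the same round libraries, so no test of RUNX1 between the muscles is given. Of all genes, 0.0612% had an adjusted p below 0.05 between the muscles, and 0.476% with the calf as a block. The log2 difference was 1.76 in a fit of the control calves alone and 0.29 in a fit of the treated calves alone. The diet difference in round muscle minus that in sirloin muscle was -1.49 (standard error 1.07), which contains the contrast that chose the gene and was not tested for it.

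RUNX2, the factor of bone and cartilage cells, was low in all libraries. In round muscle it held 0.650, 0.997, 1.43 and 2.62 CPM in the control calves and 0.876, 5.27, 0.853 and 0.815 CPM in the treated calves. Treated replicate 2 alone stood apart and held 67.4% of its group's sum, and without it the other 3 treated libraries averaged 0.848 ± 0.0310 CPM. The fitted log2 difference was 0.47 (standard error 0.685) with all libraries and -0.75 without treated replicate 2, so its sign rested on that library.

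In sirloin muscle RUNX2 held 1.205, 1.501, 1.397 and 2.305 CPM in the control calves and 1.08, 3.36, 1.62 and 2.56 CPM in the treated calves. The groups overlapped, with a log2 difference of 0.42 (standard error 0.412, adjusted p = 0.923 by edgeR). Treated replicate 2 and control replicate 4 were the highest of their diet in both muscles, and control replicate 1, the highest for RUNX1, was the lowest control library for RUNX2 in both. Between the muscles RUNX2 differed by -0.16 on the log2 scale (standard error 0.427, adjusted p = 1.00 by edgeR), and 3 of 8 calves were higher in round muscle (exact permutation p = 0.188, two-sided and unadjusted). The edgeR fit did not pair the muscles of a calf. With the calf as a block the log2 difference was -0.42 (standard error 0.250, adjusted p = 0.622 by edgeR).

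RUNX3, the factor of T cells and sensory neurons, was near the detection limit. It had between 0 and 9 counts in every library, and 4 libraries had none, which were round control replicate 3, round treated replicate 3, sirloin control replicate 4 and sirloin treated replicate 1. A count of 0 allows up to 3 counts, or 0.0434 to 0.0728 CPM in these libraries, for counting error only. The group means were 0.0910 ± 0.0658 CPM in round control, 0.0784 ± 0.0601 CPM in round treated, 0.0660 ± 0.0561 CPM in sirloin control and 0.0783 ± 0.0770 CPM in sirloin treated calves (SD, n = 4 each). No difference was detectable at this depth, and the log2 differences were 0.23 (standard error 1.27, adjusted p = 1.00 by edgeR) for the diet in sirloin muscle and 0.22 (standard error 0.897, adjusted p = 1.00 by edgeR) between the muscles. With the calf as a block the latter was 0.15 (standard error 1.22).

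CBFB, the partner that all RUNX proteins use, was the most abundant member. In round muscle it held 58.7, 54.8, 123.6 and 135.5 CPM in the control calves and 45.3, 91.4, 80.3 and 82.8 CPM in the treated calves. In sirloin muscle it held 80.3, 79.6, 130.3 and 156.8 CPM in the control calves and 82.4, 104.4, 75.8 and 74.4 CPM in the treated calves. Control replicates 3 and 4 were the highest control libraries in both muscles, and the diets overlapped in both.

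The diets did not differ in CBFB beyond this spread in sirloin muscle, where the log2 difference was -0.41 (standard error 0.261, adjusted p = 0.876 by edgeR). In round muscle the log2 difference was -0.30 (standard error 0.342). Between the muscles it was -0.22 (standard error 0.226, adjusted p = 1.00 by edgeR), and 2 of 8 calves were higher in round muscle (exact permutation p = 0.0703, two-sided and unadjusted). Over 7 alternative fits, the calf as a block among them, the log2 difference between the muscles ran from -0.27 to -0.16. On the deposited TPM scale none of the 8 calves was higher in round muscle. The TPM tables of the muscles are separate, and TPM per count of CBFB, relative to the other genes of a library, varied 1.15-fold between libraries.

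**Figure D2:**
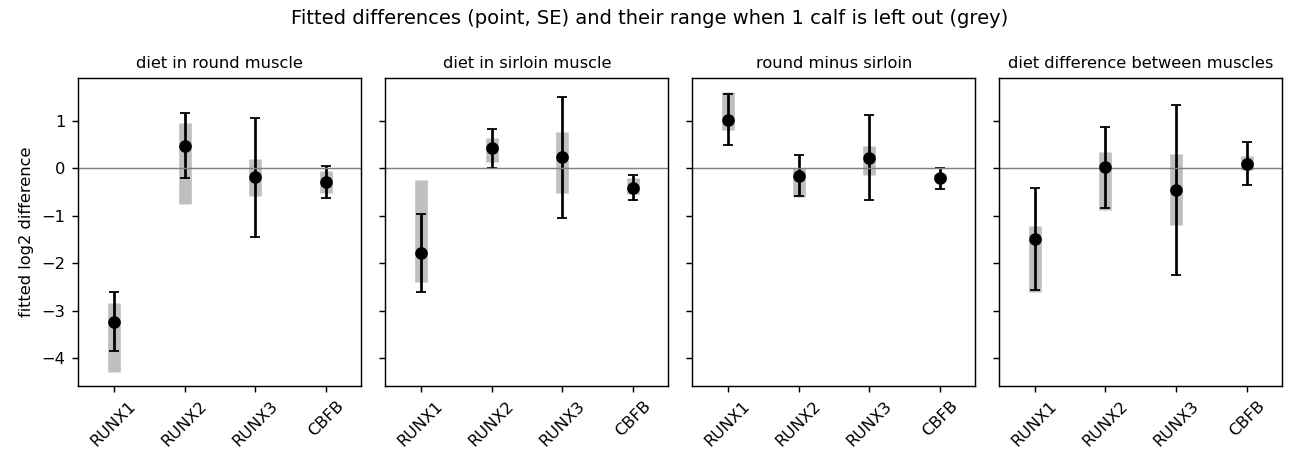
Fitted log2 difference of RUNX1, RUNX2, RUNX3 and CBFB in 4 comparisons, with the point and its standard error in black and the range over fits that leave out 1 calf in grey. RUNX1 is below 0 for the diet in both muscles under every such fit, from -4.29 to -2.85 in round and from -2.39 to -0.26 in sirloin muscle, while the grey range of RUNX2 in round muscle spans 0, from -0.75 to 0.94.

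Per length, the 4 genes stood in a clear order in round muscle of control calves. The mean TPM was 51.3 for CBFB, 4.22 for RUNX1, 0.399 for RUNX2 and 0.0345 for RUNX3, and no range overlapped the next. In sirloin muscle of control calves the order of the means was the same, but RUNX1 (1.25 TPM) and RUNX2 (0.473 TPM) overlapped. In the treated calves RUNX2 and RUNX1 stood at 0.633 and 0.466 TPM in round and at 0.717 and 0.420 TPM in sirloin muscle, with overlapping ranges in both. CBFB stayed above and RUNX3 below every other member in all 16 libraries.

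**Figure D3:**
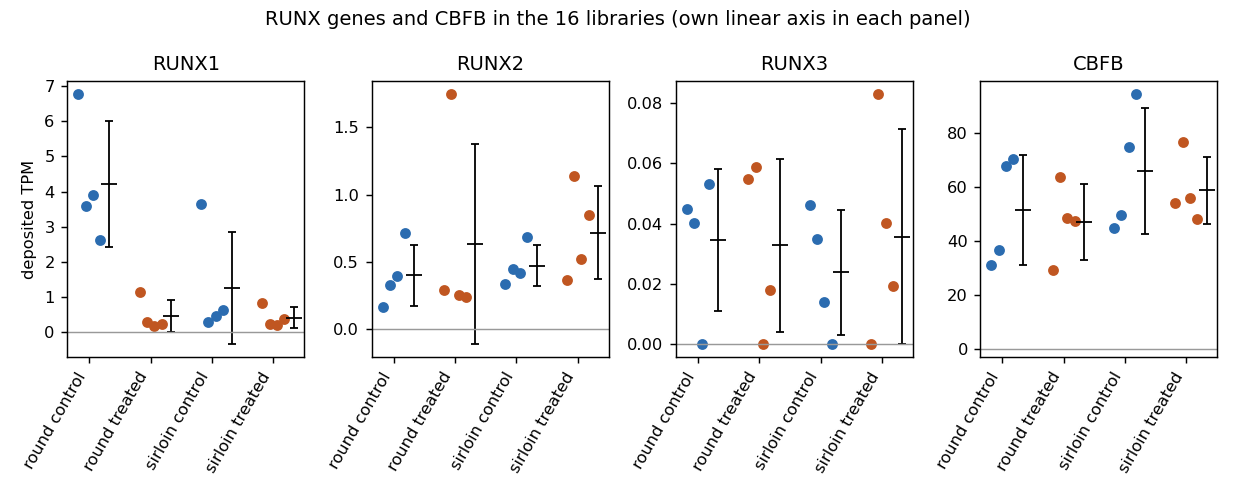
Deposited TPM of each member in the 16 libraries, with 1 point per library (blue control, orange treated, replicates 1 to 4 from left to right), the group mean as a bar and the SD as its error, and a linear axis of its own in each panel. RUNX1 is high in the 4 control round libraries and in sirloin control replicate 1, RUNX2 is highest in round treated replicate 2, and 4 libraries have no RUNX3.

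RUNX1 was the main RUNX transcript in control round muscle. It made up 77.4 to 97.0% of the summed TPM of the RUNX genes there, against 14.0 to 77.0% in round muscle of treated calves, 37.3 to 90.4% in sirloin muscle of control calves and 15.9 to 70.1% in sirloin muscle of treated calves. In each of the 4 groups replicate 1 had the highest RUNX1 share. CBFB stood at 4.43 to 20.7 times the summed RUNX TPM in control round muscle, and at 19.4 to 111 times in treated round muscle, 11.1 to 84.5 times in control sirloin muscle and 38.2 to 72.7 times in treated sirloin muscle. Transcript levels do not give the ratio of the proteins.

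**Figure D4:**
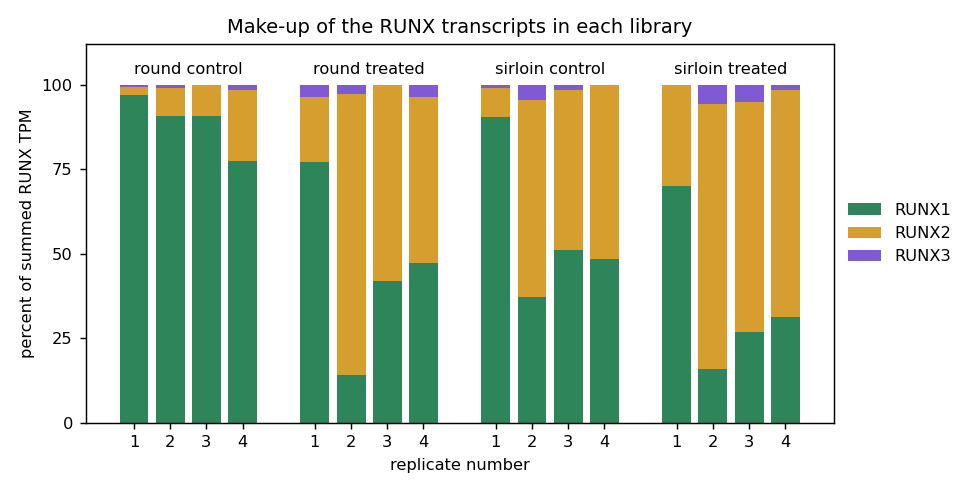
Share of RUNX1, RUNX2 and RUNX3 in the summed RUNX TPM of each of the 16 libraries, in percent, by group and replicate number. RUNX1 takes 77.4 to 97.0% in the control round libraries, and RUNX2 takes 83.2% in round treated replicate 2.

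The spread of the members within groups was wide for RUNX1. After the group means were removed its residual SD was 0.969 on the log2 CPM scale, above that of 95.1% of the 12315 genes with a mean of at least 1 CPM, where the median was 0.406. RUNX2 had a residual SD of 0.689, above 85.8% of these genes, and CBFB one of 0.493, above 66.3%. Among genes within 2-fold of the member's mean CPM the shares were 93.8% for RUNX1, 77.8% for RUNX2 and 76.1% for CBFB. Over the 16 libraries, which share calves in pairs, the residuals of RUNX2 and CBFB had a Pearson correlation of 0.567, those of RUNX1 and CBFB of -0.456 and those of RUNX1 and RUNX2 of -0.350.

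The proteins that act with RUNX factors were read from a list of 23 cofactors, among them the Groucho/TLE and ETO corepressors, histone modifiers and ubiquitin ligases. By edgeR none of the 23 passed an adjusted or an unadjusted p of 0.05 for the diet in either muscle or between the muscles, and DESeq2 called none at an adjusted p of 0.05 and 1 at an unadjusted p of 0.05, for the diet in round muscle. Over all genes tested, edgeR gave an unadjusted p below 0.05 to 4.41% for the diet in round muscle, 3.91% for the diet in sirloin muscle and 6.33% between the muscles. DESeq2 gave an adjusted p below 0.05 to 0.208%, 0.0597% and 0.367% of them in the same order. The median log2 difference of the cofactors was 0.14 in round and -0.0046 in sirloin muscle, beside 0.02 and 0.03 for all genes. Their summed TPM lay between 595 and 665 in control and between 661 and 884 in treated round muscle.

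Among 26 transcription factors known to act with RUNX proteins (AP-1, ETS, TEAD, CEBP and SMAD factors and others), 1 passed the adjusted test for the diet in round muscle, where 0.0185% of all genes did, and DESeq2 called 2 of the 26. The gene called by edgeR was FOSL1, an AP-1 subunit, at 7.27 to 22.6 CPM in control and 0.206 to 1.00 CPM in treated round muscle. Its log2 difference was -4.49 (standard error 0.572, adjusted p = 0.0367 by edgeR). The call was lost by limma-voom (adjusted p = 0.0557), and with 1 calf left out the adjusted p by edgeR ran from 0.0429 to 0.111 and stayed below 0.05 in 1 of 8 such fits, the one without treated replicate 1. In sirloin muscle FOSL1 held 0.166 to 1.205 CPM in control and 0 to 0.0800 CPM in treated calves, with a log2 difference of -3.48 (standard error 0.954, adjusted p = 0.876 by edgeR). It was also the 1 partner factor that passed between the muscles, with a log2 difference of 4.06, round minus sirloin (standard error 0.532, adjusted p = 0.00184 by edgeR without the calf as a block). The treated sirloin libraries held 0 to 5 counts of it. The paper lists FOSL1 among its called genes in round muscle, and the lists were chosen with earlier results known. Both contrasts hold those round libraries, so neither p-value is an independent test of FOSL1.

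A second AP-1 subunit, JUND, had a log2 difference of -1.74 in round muscle (standard error 0.434, adjusted p = 0.864 by edgeR), from 94.3 to 395.8 CPM in control and from 42.2 to 100.8 CPM in treated calves. DESeq2 called JUND there (adjusted p = 0.0451), and limma-voom did not (adjusted p = 0.973). The paper also lists JUND among its called genes in round muscle, so the DESeq2 call is no independent test of it. In sirloin muscle FOS, the AP-1 subunit of the immediate early response, had a log2 difference of 2.54 (standard error 0.826, adjusted p = 0.876 by edgeR). Treated replicate 4 carried it, at 435.6 CPM beside 29.7 to 66.6 CPM in the other treated libraries, and without it the difference was 0.87. SPI1, a myeloid ETS factor, had a log2 difference of 1.24 (standard error 0.543, adjusted p = 0.876 by edgeR). The median over the 26 partner factors was -0.06 in round and 0.04 in sirloin muscle.

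Of 20 tested genes of denervated or regenerating muscle, the setting in which RUNX1 is known to rise, none passed the adjusted test by edgeR for the diet in either muscle. At an unadjusted p below 0.05 edgeR counted 2 in round and 1 in sirloin muscle, where 4.41% and 3.91% of all genes tested passed. No test set these counts against those shares. DESeq2 had none at an adjusted p, and 2 and 1 at an unadjusted p. ANKRD1, a stress-responsive repeat protein of striated muscle, held 1011 to 7899 CPM in control and 133 to 1228 CPM in treated round muscle. Its log2 difference was -3.00 (standard error 0.819, adjusted p = 0.864 by edgeR) in round and -1.76 (standard error 0.786, adjusted p = 0.876 by edgeR) in sirloin muscle. The median log2 difference of the 20 genes was -0.14 in round and -0.16 in sirloin muscle.

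Markers of the cells in which the RUNX genes are best known were read beside them. For RUNX1, the 22 blood cell progenitor and myeloid genes summed to 21.4 to 69.7 TPM in control and 22.6 to 104 TPM in treated round muscle, and to 19.3 to 42.5 TPM in control and 21.4 to 156 TPM in treated sirloin muscle. GFI1B was at 0 in every group, and MPO and ELANE were at 0 in treated round and control sirloin muscle. In round muscle 0 of 21 tested genes of this list passed an unadjusted p of 0.05 by edgeR, and 1 did by DESeq2. In sirloin muscle 6 of 21 did by edgeR, all higher in treated calves, as 2.3% of all genes were, and none passed the adjusted test by edgeR or DESeq2. At an unadjusted p DESeq2 had 7 and limma-voom 2 of the 21, and the share of all genes at that p is not given for these tools.

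The 4 with the smallest p were TYROBP, C1QA, CD163 and KIT, of which the first 3 mark macrophages and KIT marks progenitors and mast cells. Their log2 differences were 1.87, 1.88, 1.56 and 0.94 (adjusted p = 0.876 each by edgeR). Without treated replicate 2 those of C1QA and CD163 were 0.94 and 1.01, and without treated replicate 4 that of KIT was 0.55. TYROBP rested on few counts, 3 to 18 in control and 15 to 39 in treated sirloin libraries. Replicate 2 had the highest sum of this list in all 4 groups, and RUNX1 was highest in replicate 1 of each group. The part of these cells in the RUNX1 values was not tested.

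For RUNX3, the 20 T and NK cell genes summed to 16.1 to 27.8 TPM in control and 22.7 to 31.7 TPM in treated round muscle, and to 19.7 to 40.7 and 28.5 to 47.6 TPM in sirloin muscle. The levels within the list were uneven. In control round muscle ZBTB7B stood at 29.8 to 42.7 CPM and CD3E at 0.0971 to 0.313 CPM. A sum weighted to its highest genes does not measure T or NK cells. IFNG was at 0 in all 4 groups. CD3E in round muscle (log2 difference 1.44, adjusted p = 0.864 by edgeR) and IL7R in sirloin muscle (1.54, adjusted p = 0.876 by edgeR), both T cell surface receptors, had unadjusted p-values below 0.05, as 1 of 19 tested genes in each muscle. Of all genes tested by edgeR, 4.41% passed in round and 3.91% in sirloin muscle. Both genes rested on few counts. CD3E had 4 to 14 in control and 14 to 42 in treated round libraries. IL7R had 4 to 10 in control and 10 to 33 in treated sirloin libraries. The part of these cells in the RUNX3 counts was not tested.

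For RUNX2, the 20 bone and cartilage genes summed to 425 to 663 TPM in control and 400 to 667 TPM in treated round muscle. In control round muscle 6 of the 20 were at 0, and ALPL stood at 5.37 to 7.16 CPM and TNFRSF11B at 0.120 to 4.38 CPM. Which genes made up the sum is not shown, so it does not measure bone or cartilage cells. The bone matrix gene IBSP and the cartilage protease gene MMP13 were at 0 in all 4 groups. In round muscle ALPL, alkaline phosphatase, had a log2 difference of 0.97 and TNFRSF11B, the decoy receptor osteoprotegerin, of -3.64, both with an adjusted p of 0.864 by edgeR, and none of 17 had an unadjusted p below 0.05 in sirloin muscle by edgeR or DESeq2.

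The summed TPM of marker lists for other cell types also differed between libraries, which does not measure the cells themselves. The 14 fibroblast and tendon genes summed to 360 to 2367 TPM in control and 323 to 540 TPM in treated round muscle, with the highest sum in control replicate 2. The 10 red blood cell genes summed to 3.88 to 18.8 TPM in control and 13.4 to 36.6 TPM in treated round muscle, and HBM, SLC4A1, EPB42 and CA1 were at 0 in both. The 10 endothelial genes summed to 95.5 to 173 and 162 to 184 TPM, and the 14 satellite cell and myoblast genes to 397 to 754 and 323 to 916 TPM, in the same order. The ranges of control and treated round muscle overlapped for each of these lists, and their part in the RUNX1 values was not tested.

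Genes of these lists with an unadjusted p below 0.05 for the diet in round muscle included the tendon genes TNC and TNMD. The log2 difference of TNC was -2.22, and -0.23 without control replicate 2. TNMD held 1.83 CPM in control replicate 2, 0.0655 to 0.219 CPM in the other control libraries and 0 counts in every treated library. Also among these genes were CLDN5 of endothelial junctions (0.96, and 0.41 without treated replicate 4), VCAM1 of satellite cells (1.86, and 0.15 without treated replicate 2) and the slow myosin gene MYH7 (1.15, and 0.35 without treated replicate 2). They also included the near-identical haemoglobin genes HBA and HBA1 (1.48 and 1.53), whose reads may be shared. In sirloin muscle they were VCAM1 (1.29), HEYL (-0.76), PDGFRA of fibroblasts (0.92), HBA and HBA1 (1.59 each), the myoglobin gene MB (-1.05), MYOT (-0.65) and NEB (-0.53), and PAX3 with 0 to 2 counts in control and 0 to 39 counts in treated calves. None of them passed the adjusted test by edgeR in either muscle. DESeq2 called 1 of the 14 fibroblast and tendon genes in round muscle, TNMD (adjusted p = 0.00321), which the paper also lists among its called genes there.

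The genes whose pattern was most like that of each member were read from 12091 genes with a symbol and a mean of at least 1 CPM, by Pearson's r over the 16 libraries after the group means were removed. For RUNX1 they were LOC100847415 (r = 0.888), CARS2 (0.831), LOC783612 (0.824), CAV3 (0.822) and PDLIM7 (0.820). CAV3 encodes the muscle caveolin and PDLIM7 a cytoskeletal PDZ-LIM protein. For RUNX2 they were TCF12 (0.928), a partner of myogenic factors, and ZKSCAN7, LOC112449300, VASH2 and RBM4B (0.875 to 0.911).

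For CBFB the 5 genes were UTP11 (0.930), ZMYM5, ZBTB44, TTC14 and SMAD4 (0.886 to 0.904). For RUNX3, with its few counts, they were ARID3A, SPECC1L, ZFAT, ZNF407 and LOC534913 (0.784 to 0.825). The libraries share calves, and with the group means kept or with Spearman's rho 0 to 3 of the 5 genes named for a member were named again. With the group means kept, FOSL1 was among the 5 genes most like RUNX1, but this keeps the diet difference in round muscle by which RUNX1 was chosen. With the group means removed FOSL1 was not among the 5, by Pearson's r or by Spearman's rho.

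Reads of overlapping genes could not be separated by strand, since the setting of the counting is not given in the sources used here. Within RUNX1, LOC112448042 and MIR2285A had 0 counts in all 16 libraries. SUPT3H, a coactivator subunit that overlaps RUNX2, had 321 to 907 counts and log2 differences of 0.14 for the diet in each muscle (adjusted p = 0.971 in round and 1.00 in sirloin muscle by edgeR). LOC101905588, which overlaps CBFB, had 69 to 413 counts, fewer than CBFB in every library.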

How the data were processed

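RNA from round and sirloin muscle of 8 calves was sequenced as 16 libraries, in 4 groups of 4. The deposited read counts are whole numbers per gene without normalization, for 34109 NCBI gene IDs, and the authors' TPM values were deposited in a separate table for each muscle. The submitters' processing notes list Trimmomatic, STAR, featureCounts and the build ARS-UCD1.2, and the labels state poly(A) selection, whereas the paper's methods name HISAT2, Bowtie2, StringTie and the depletion of ribosomal and globin RNA, so the sources conflict. The authors' own comparison tables hold fold changes and p-values and were not used. A symbol was found in RefSeq's gene table for 90.2% of IDs, and its build differs from that of the files, so no coordinates are given.

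Counts were tested with edgeR 4.0.16 (TMM, glmQLFit, glmQLFTest, two-sided, Benjamini-Hochberg over all genes tested) in R 4.3.3, on genes with at least 1 count in any library of the fit. Each muscle was fitted by itself for the diet. For the muscles all 16 libraries were fitted in 4 groups, without the calf except where a block is named. A standard error is the log2 difference divided by the square root of F. CPM used TMM factors (0.862 to 1.12). Exact permutation tests used log2(CPM + 0.5). The replicates of a group were separate calves.

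Alternatives were DESeq2 1.42.0, limma-voom (limma 3.58.1), RLE factors, filterByExpr, all libraries in a single fit, a replicate block and leaving out each calf. The library numbers in the labels were used to pair the muscles of a calf (r of 0.351 to 0.771 within calves and -0.548 to 0.489 between calves), while the replicate numbers do not pair calves of different diets (r of -0.293 to 0.310). The steps were tested on simulated data. The 4 genes and the 11 lists (194 genes matched) were chosen with earlier results of these data known. Genes were named by this rule: the 4 members, the 5 genes most like each, overlapping genes, list genes with an adjusted p below 0.05, and up to 4 of each list with the smallest unadjusted p below 0.05 for a diet. Some genes that the rule or the counts cover are not named here.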

Additional observations from a re-analysis of the deposited data

Results flagged for a closer look

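In 16 sets of 4 libraries (4 genes in 4 groups), 3 had a library far from the others by Dixon's ratio, the gap to the nearest library over the whole range, with a critical value of 0.829. About 1 in 20 sets would pass if the values were normal and the sets independent. These values are CPM on a linear scale and the sets share calves, so the rate expected by chance is not known here. RUNX1 in treated round muscle had a ratio of 0.915, with replicate 1 at 4.06 CPM and the next at 0.926 CPM. RUNX1 in control sirloin muscle had a ratio of 0.904, with replicate 1 at 13.7 CPM and the next at 2.19 CPM. RUNX2 in treated round muscle had a ratio of 0.986, with replicate 2 at 5.27 CPM and the next at 0.876 CPM. The high calf was also the highest of its diet for the same gene in the other muscle in all 3 cases.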

How the results depend on the processing

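RUNX1 kept its direction in each comparison under every alternative run, and no tested member had an adjusted p below 0.05 in any fit across all genes. The replicate block changed no call of a member. For the diet within a muscle it joined calves by replicate number, which does not pair calves of different diets. Those block fits are therefore no check of the diet results. Genes with an adjusted p below 0.05 numbered 4 for the diet in round muscle by edgeR, 45 by DESeq2, 1 by limma-voom and 2 with the replicate block. For the diet in sirloin muscle they numbered 2, 13, 0 and 0 in that order. Between the muscles they numbered 14 by edgeR, 84 by DESeq2, 109 with the replicate block (the calf), 5 in control and 2 in treated calves alone, and for the diet difference between muscles 0 by edgeR and DESeq2 and 1 with the block. List genes with an unadjusted p below 0.05 between the muscles numbered 17 by edgeR, 9.19% of 185 tested, where 6.33% of all genes passed. They numbered 9 by limma-voom, 30 with the block, 10 in control and 9 in treated calves alone. For the diet difference they numbered 7, 3 under filterByExpr and 22 with the block. The share of all genes is not given for the diet difference or for the other fits. On the TPM scale, whose tables are separate for each muscle, the within-calf difference of RUNX1 was 0.87 and that of CBFB -0.36 (exact permutation p = 0.00781, the smallest possible and unadjusted), beside -0.26 and p = 0.0703 on CPM. RUNX3 reversed to -0.00091 between the muscles in treated calves alone, and the cause was not tested.

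With 1 calf left out, the diet difference in round muscle ran from -4.29 to -2.85 for RUNX1, from -0.75 to 0.94 for RUNX2 and from -0.59 to 0.20 for RUNX3. In sirloin muscle it ran from -0.53 to 0.77 for RUNX3. Between the muscles the range was -0.61 to 0.0059 for RUNX2 and -0.15 to 0.46 for RUNX3. The diet difference between muscles ran from -2.60 to -1.21 for RUNX1, from -0.88 to 0.34 for RUNX2 and from -1.20 to 0.29 for RUNX3. Genes called numbered 0 to 3 in round, 0 to 1 in sirloin and 13 to 19 between the muscles, and list genes 12 to 24, 10 to 27 and 12 to 27 in the same order and 6 to 11 for the diet difference. The share of all genes at the unadjusted p is not given for these fits. RUNX3, with at most 9 counts in a library, limits what can be said of it at this depth.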
